A study of Mus musculus with 6 samples.

Results

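Tumor-associated macrophages (TAMs) of the mouse were sequenced after sorting from tumors, and the transcripts described here are 44 genes of T cells and natural killer (NK) cells that were counted in those libraries. The genes were taken as a fixed list of symbols, and all 44 are among the 22377 genes of the deposited count table. The macrophages were obtained by a sort for the surface proteins CD45, CD11b and F4/80. The tumors were of LLC, a Lewis lung carcinoma cell line, grown under the skin of young adult Npm1+/+ or Npm1+/- mice, the study using animals of both sexes. The 3 libraries labelled wt correspond to Npm1+/+ and the 3 labelled knockdown to Npm1+/-. A knockdown is not a heterozygous genotype, so the libraries are called wt and knockdown as labelled. The mice were haploinsufficient for Npm1 without a restriction to macrophages, so lymphocytes of the knockdown group would carry the same genotype. The LLC cells were the same for both groups. The sample labels give tumor tissue as the material instead of sorted cells, and the difference between labels and methods could not be settled here.

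T cells recognize antigen through a T cell receptor whose signal is carried into the cell by the CD3 chains and the zeta chain, and the CD8 or CD4 coreceptor binds the MHC molecule. Lck, Zap70, Lat and Skap1 pass the signal on, and costimulatory and inhibitory receptors set its strength. Cytotoxic T cells and NK cells share granzymes, perforin and interferon gamma, whereas NK cells see their targets through receptors such as Ncr1 and the Klr family. None of these genes belongs to the sorting gate, and macrophages are not known for CD3 expression. Some members are found outside T and NK cells, such as Thy1 in fibroblasts and Il2ra in activated myeloid cells.

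The libraries held between 36550775 and 38147320 counts. A count of 0 would allow up to 3 counts, or between 0.0716 and 0.0846 CPM (counts relative to the library total after TMM scaling, a correction for library composition), and this limit covers counting error only. The labels call the libraries of a group separate biosamples without naming animals, so the p-values measure the spread between these samples, which may be technical. In a legend the study gives fewer individual mice than a group has libraries, so whether each library is a mouse of its own is not known here, and n counts libraries. The sorting markers were high in each library. Itgam, which encodes CD11b, was listed at between 365 and 593 FPKM (counts scaled by gene length and library total), Ptprc, which encodes CD45, at between 152 and 233, and Adgre1, which encodes F4/80, at between 43.5 and 84.0. The members' means over 6 libraries lay between 0.377 FPKM for Bcl11b and 28.3 for Ctla4, with a median of 5.34. In knockdown replicate 2, Ctla4 (75.3 FPKM), Gzma, Gzmb, Il2rb, Nkg7 and Thy1 stood above Adgre1 (43.5). The other members were below it there. Npm1 was not lower in the knockdown libraries, at 142, 380.2 and 381 CPM in wt replicates 1, 2 and 3 and 441, 499 and 343 in knockdown replicates 1, 2 and 3. Its log2 fold change was 0.51 with a standard error of 0.36 (edgeR, adjusted p = 0.436), so every direction below is one between libraries as labelled.

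To show the regulatory sequence of the members, most of which ranked the libraries alike, the 250 bases before the transcription start were read for the 32 members with an entry in the RefSeq promoter table of GRCm38. The motif TGTGGT of RUNX factors, searched on both strands as all motifs here, was in 11 of these 32 windows (34.4%), against 14.2% of 27025 promoters of all genes. The motif AGGAAG of ETS factors was in 16 (50.0%), against 29.2%. The others were TGGAAA for NFAT in 15.6% against 18.7% of all promoters, CTTTGA for TCF and LEF in 12.5% against 14.0%, GGTGTGA for T-box factors in 9.38% against 3.31%, AGATAA for GATA factors in 6.25% against 10.3% and TGANTCA for AP-1 in 3.12% against 6.87%. These are descriptions of letters in a window and not binding sites. The windows of 6 genes are printed 5′ to 3′ on the strand of the gene, with RUNX and ETS matches in capitals, 1 or more for each of the T cell receptor complex (Cd3e), its signalling (Lck), the cytotoxic granule (Prf1, Nkg7, Gzmb) and the NK receptors (Klrk1, the member with the smallest span across libraries). No RUNX match overlapped an ETS match in any window. All 6 printed windows hold a match, whereas others, among them those of Cd3g, Cd8a and Ifng, hold neither motif.
Cd3e (chr9:45009612-45009861, minus strand): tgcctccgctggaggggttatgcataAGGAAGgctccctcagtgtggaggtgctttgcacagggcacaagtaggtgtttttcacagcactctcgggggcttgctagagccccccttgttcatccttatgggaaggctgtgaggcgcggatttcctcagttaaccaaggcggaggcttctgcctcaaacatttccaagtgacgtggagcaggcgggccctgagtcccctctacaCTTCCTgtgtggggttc
Lck (chr4:129573642-129573891, minus strand): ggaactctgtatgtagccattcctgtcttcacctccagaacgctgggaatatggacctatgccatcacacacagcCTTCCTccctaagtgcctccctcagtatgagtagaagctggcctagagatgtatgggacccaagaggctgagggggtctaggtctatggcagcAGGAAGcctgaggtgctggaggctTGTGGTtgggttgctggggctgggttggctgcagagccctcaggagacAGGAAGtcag
Prf1 (chr10:61297586-61297835, plus strand): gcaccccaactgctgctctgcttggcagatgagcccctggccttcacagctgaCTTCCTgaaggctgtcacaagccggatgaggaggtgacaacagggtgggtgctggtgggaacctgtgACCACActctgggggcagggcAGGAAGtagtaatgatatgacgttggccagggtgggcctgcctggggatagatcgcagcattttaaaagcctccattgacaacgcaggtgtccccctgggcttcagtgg
Nkg7 (chr7:43436888-43437137, plus strand): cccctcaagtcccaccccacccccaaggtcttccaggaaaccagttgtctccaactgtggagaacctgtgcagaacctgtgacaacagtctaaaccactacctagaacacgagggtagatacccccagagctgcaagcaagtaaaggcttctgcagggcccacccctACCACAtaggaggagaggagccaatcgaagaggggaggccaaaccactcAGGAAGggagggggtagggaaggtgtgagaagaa
Gzmb (chr14:56262335-56262584, minus strand): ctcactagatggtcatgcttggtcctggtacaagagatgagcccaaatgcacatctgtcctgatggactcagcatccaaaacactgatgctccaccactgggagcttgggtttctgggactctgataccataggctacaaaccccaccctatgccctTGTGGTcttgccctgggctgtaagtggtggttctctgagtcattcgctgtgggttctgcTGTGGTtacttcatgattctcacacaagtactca
Klrk1 (chr6:129623865-129624114, minus strand): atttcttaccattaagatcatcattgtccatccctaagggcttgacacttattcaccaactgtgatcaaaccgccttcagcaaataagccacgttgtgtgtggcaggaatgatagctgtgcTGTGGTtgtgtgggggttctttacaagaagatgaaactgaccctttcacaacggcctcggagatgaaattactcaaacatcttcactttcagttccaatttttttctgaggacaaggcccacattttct

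Most of the 44 genes ranked the 6 libraries alike. Knockdown replicate 2 held the highest level of 43 of them, and wt replicate 1 or 2 held the lowest level of all 44. Wt replicate 3 lay with knockdown replicates 1 and 3, above knockdown replicate 3 in 37 genes and above knockdown replicate 1 in 27. Among all 13884 genes tested, 25.1% were highest in knockdown replicate 2, 47.7% were lowest in wt replicate 1 or 2, and 20.1% were both. The summed level of the 44 genes was 237, 259.8 and 629.6 CPM in wt replicates 1, 2 and 3 and 593, 1461 and 534 in knockdown replicates 1, 2 and 3. The mean was 375 ± 221 CPM (SD, n = 3) in wt and 863 ± 519 (SD, n = 3) in knockdown libraries, 2.30-fold higher in the latter, and the groups overlapped. Without knockdown replicate 2 the log2 ratio of the means fell from 1.20 to 0.58, and without wt replicate 3 it was 1.78.

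**Figure D1:**
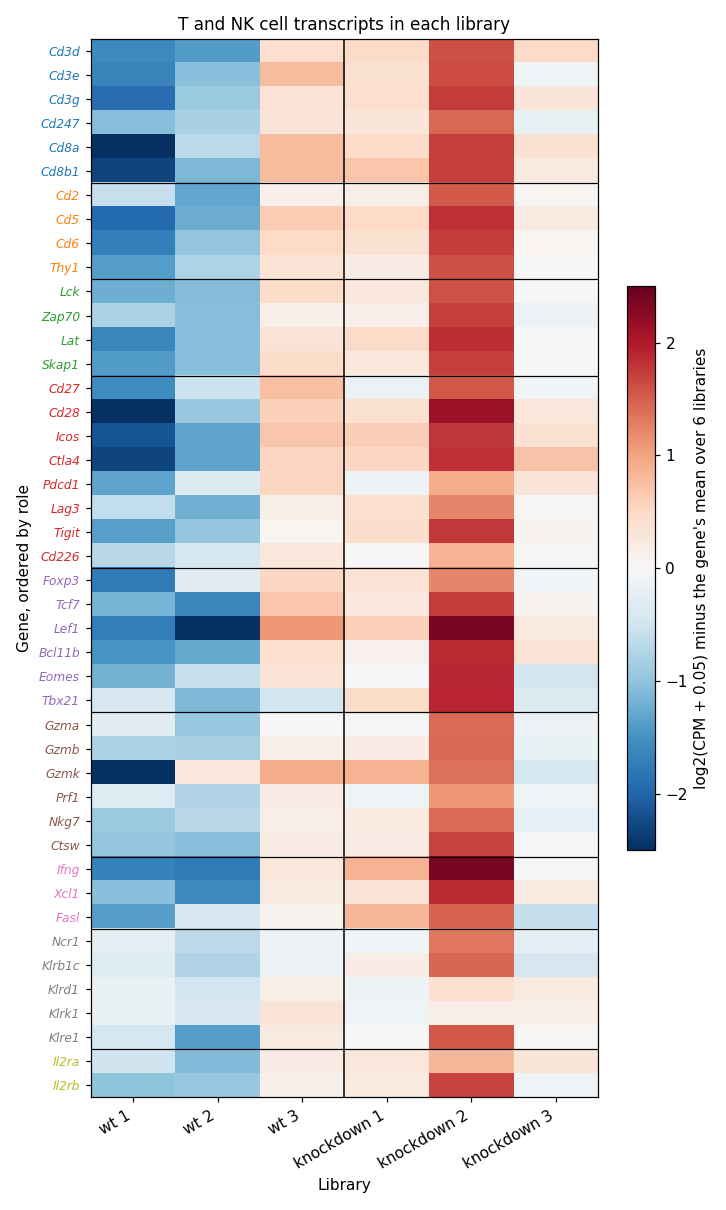
Levels of the 44 T and NK cell transcripts (vertical axis, ordered and colored by role) in the 6 libraries (horizontal axis), as log2(CPM + 0.05) minus the mean of each gene, with colors saturating at 2.5 on either side. Knockdown replicate 2 is the highest library for 43 genes, wt replicates 1 and 2 hold the lowest values, and wt replicate 3 resembles knockdown replicates 1 and 3.

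All 44 genes passed the filter on low counts and were tested with edgeR's quasi-likelihood test. Each had a higher estimate in knockdown libraries, where 52.1% of all genes tested did. The median log2 fold change was 1.23, against 0.02 over all genes tested, and the range was from 0.12 for Klrk1 to 2.17 for Ifng. None of the 44 passed an adjusted p of 0.05, and 0% of all genes tested did. The smallest adjusted p of a member was 0.328, which was also the smallest of any gene. At an unadjusted p under 0.05 there were 15 members, or 34.1%, against 6.9% of all genes tested that were higher at this level. With DESeq2, 0 members were called, the smallest adjusted p being 0.0888 for Ifng, and 0.0949% of all genes were called as higher. In 5 members, Cd3d, Tigit, Tbx21, Xcl1 and Il2ra, every knockdown library was above every wt library in CPM, as was the case for 13.3% of all genes tested. The margin was narrow in each of these 5. In Tbx21 it lay between 66 counts in knockdown replicate 3 and 63 in wt replicate 1. In FPKM the groups overlapped in Xcl1. The count of 15 depended on single libraries. It became 0 without knockdown replicate 2, with a median log2 fold change of 0.56, where 1.81% of all genes were higher at this level. It was also 0 without wt replicate 2, with a median of 1.07, where 9.79% of all genes were. Without wt replicate 1 it was 3, against 6.81% of all genes, and without wt replicate 3 it was 30, against 8.83%. With DESeq2 it was 26, against 5.6% of all genes. Without a filter on low counts it was 31, against 6.71%, and in the fit with a replicate block 6, against 5.43%.

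**Figure D2:**
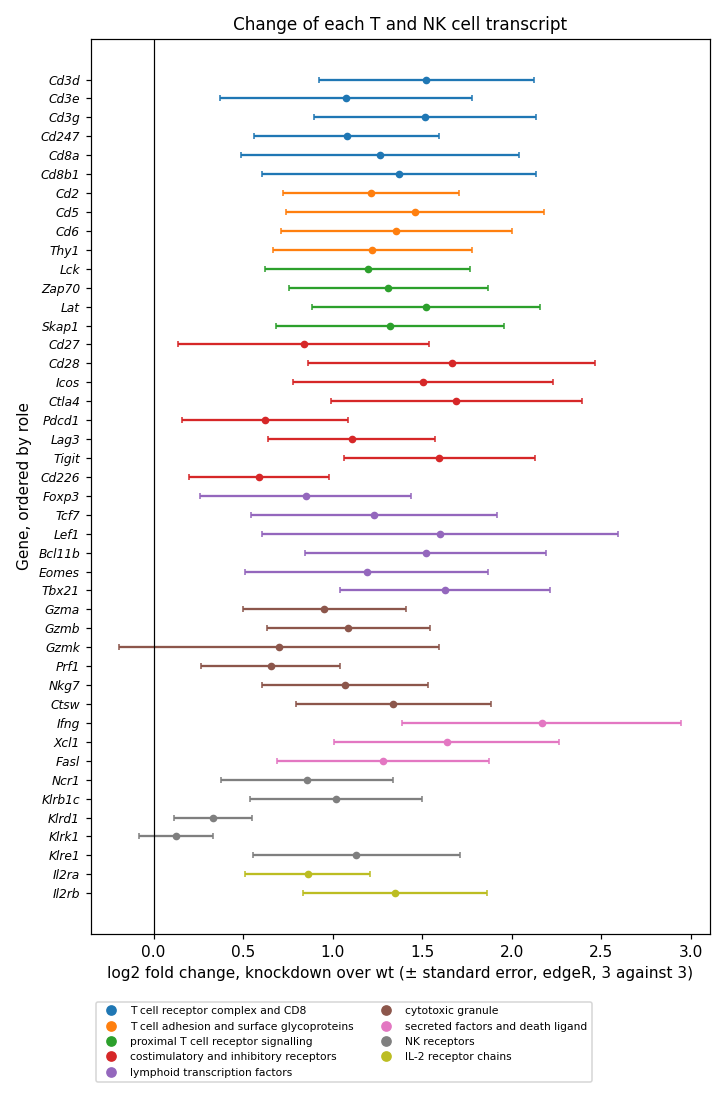
Log2 fold change of each gene, knockdown over wt (horizontal axis, points with standard error from edgeR's quasi-likelihood test, 3 libraries against 3), with genes on the vertical axis ordered and colored by role. All 44 points lie above 0, from 0.12 for Klrk1 to 2.17 for Ifng, and none passed an adjusted p of 0.05.

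In what follows, values are TMM-scaled CPM in wt replicates 1, 2 and 3, then in knockdown replicates 1, 2 and 3. CPM of a gene can be compared between libraries and not with another gene. A bulk library cannot tell more cells of a type from more RNA per cell.

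The 6 genes of the T cell receptor complex and CD8 had a median log2 fold change of 1.32, and 0 of 6 were called. Cd3e, the CD3 epsilon chain, stood at 1.91, 2.90 and 10.6 CPM against 7.91, 19.0 and 5.63. Cd3d, the delta chain, stood at 2.19, 2.51 and 8.96 CPM against 9.31, 20.6 and 9.35. The gamma chain gene Cd3g was at 2.73, 5.44 and 13.4 CPM against 14.0, 35.1 and 12.7. In all 3 chains wt replicates 1 and 2 were lowest and knockdown replicate 2 was highest. The groups overlapped in Cd3e and Cd3g. In Cd3d they did not, though knockdown replicate 1, at 9.31, was only slightly above wt replicate 3, at 8.96. The log2 fold change was 1.52 for Cd3d (standard error 0.60, unadjusted p = 0.0365, adjusted p = 0.328), 1.52 for Cd3g (standard error 0.62, adjusted p = 0.328) and 1.07 for Cd3e (standard error 0.70, adjusted p = 0.409). Cd247, the zeta chain, was at 3.01, 3.58 and 7.86 CPM against 7.81, 17.2 and 5.53. Its range from lowest to highest library was 5.71-fold, the narrowest of the 6 genes. The coreceptor chains were Cd8a, at 1.66, 7.02 and 19.6 CPM against 15.7, 37.5 and 14.6, and Cd8b1, at 1.01, 2.37 and 9.09 CPM against 8.52, 17.6 and 6.21. Both were very low in wt replicate 1, and their span from the lowest to the highest library was 22.6-fold and 17.4-fold. Cd3e and Cd247 overlap further gene models, as do members of other roles, among them Ctsw, Gzmk and Cd27. How strand was treated in the counting is not given in the sources used here.

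Among the surface glycoproteins, Cd2, an adhesion receptor that T and NK cells share, stood at 9.90, 5.98 and 16.1 CPM against 16.3, 42.7 and 15.3. Cd5, an inhibitory receptor of T cells, stood at 1.27, 2.09 and 7.81 CPM against 7.10, 17.8 and 5.83. Its relative Cd6 stood at 3.51, 5.86 and 16.5 CPM against 15.2, 39.1 and 12.0. In Cd5 and Cd6 wt replicate 1 was lowest, whereas in Cd2 it was wt replicate 2. Thy1, the classical marker of mouse T cells, was at 8.69, 13.3 and 28.8 CPM against 26.0, 69.7 and 22.7. The 4 log2 fold changes lay between 1.21 and 1.46, and Cd2 alone had an unadjusted p under 0.05 (0.041, adjusted p = 0.328).

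The genes of proximal signalling varied in the same way. Lck, the kinase bound to CD4 and CD8, was at 8.49, 9.41 and 27.5 CPM against 24.1, 59.9 and 20.0. Zap70, the kinase recruited to the phosphorylated CD3 and zeta chains, was at 4.13, 3.41 and 7.89 CPM against 7.81, 24.0 and 6.48. Its adaptor substrate Lat was at 2.59, 3.86 and 10.4 CPM against 11.3, 29.1 and 7.99. Each was lowest in wt replicate 1 or 2, and wt replicate 3 was above knockdown replicate 3 in all 3 genes. Skap1, an adaptor of integrin activation, stood at 1.66, 2.09 and 6.12 CPM against 5.34, 14.8 and 4.49. The 4 log2 fold changes lay between 1.20 and 1.52, with adjusted p from 0.328 to 0.336.

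Of 8 costimulatory and inhibitory receptors, Ctla4 had the highest level per length of all 44 genes, with a mean of 28.3 FPKM. In CPM this inhibitory receptor, constitutive in regulatory T cells, stood at 8.04, 15.8 and 57.3 CPM against 56.9, 140.2 and 65.0. It had a log2 fold change of 1.69 (standard error 0.70, adjusted p = 0.328). Cd28, its stimulatory counterpart, stood at 2.61, 7.70 and 22.5 CPM against 19.4, 66.6 and 18.1, and Icos, a relative induced on activated T cells, at 3.29, 5.98 and 24.0 CPM against 22.9, 52.0 and 19.6. In these 3 genes wt replicate 1 was lowest, and the span between lowest and highest library was 17.4-fold, 25.5-fold and 15.8-fold. Cd27, a costimulatory TNF receptor, was at 0.703, 1.49 and 3.74 CPM against 1.98, 6.56 and 2.08. Tigit, an inhibitory receptor of T and NK cells, was at 3.60, 4.76 and 9.68 CPM against 12.7, 32.0 and 9.85. It had the smallest unadjusted p of all members (0.0185, log2 fold change 1.60, standard error 0.53, adjusted p = 0.328). Its groups did not overlap in CPM, though knockdown replicate 3 was only slightly above wt replicate 3. Cd226, which competes with Tigit for the same ligands, was at 1.80, 2.14 and 3.56 CPM against 2.90, 5.39 and 2.98, with a log2 fold change of 0.59 (standard error 0.39, adjusted p = 0.413). The inhibitory receptor Pdcd1, or PD-1, was at 5.45, 10.7 and 19.9 CPM against 12.4, 25.9 and 17.1, and Lag3, an inhibitory receptor related to CD4, at 1.72, 1.13 and 2.99 CPM against 3.54, 6.30 and 2.74. Pdcd1 and Cd226 had the smallest estimates of these 8 genes, and in Pdcd1 wt replicate 3 was above knockdown replicates 1 and 3.

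The transcription factors were low, with mean levels between 0.377 and 1.83 FPKM. Foxp3, the defining factor of regulatory T cells, stood at 0.900, 2.62 and 4.57 CPM against 4.10, 7.47 and 3.04. Tcf7 and Lef1, partner factors of naive and memory T cells, stood at 7.34, 5.33 and 26.9 CPM against 19.7, 55.5 and 17.6 and at 0.787, 0.423 and 5.85 CPM against 4.15, 14.1 and 3.25. Lef1 had the widest span of the members, 33.3-fold, from 0.423 CPM in wt replicate 2 to 14.1 in knockdown replicate 2. Bcl11b, required for T cell identity, was at 1.18, 1.38 and 4.54 CPM against 3.64, 12.5 and 4.27. The T-box factors of cytotoxic lymphocytes were Eomes, at 1.77, 2.76 and 5.21 CPM against 4.04, 15.3 and 2.95, and Tbx21, or T-bet, at 1.77, 1.04 and 1.68 CPM against 3.26, 8.86 and 1.81. In Tbx21 wt replicate 3 was close to wt replicate 1, and the groups did not overlap (log2 fold change 1.63, standard error 0.59, unadjusted p = 0.0259, adjusted p = 0.328). Knockdown replicate 3, at 1.81, was only slightly above wt replicate 1, at 1.77. All 6 factors except Bcl11b and Tbx21 overlap other annotated genes.

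The 6 genes of the cytotoxic granule had a median log2 fold change of 1.01, and 0 of 6 were called. Gzmb, or granzyme B, stood at 16.9, 16.5 and 32.6 CPM against 33.8, 80.1 and 26.3. Gzma, or granzyme A, stood at 16.5, 10.2 and 19.6 CPM against 19.2, 52.7 and 17.7. In both, wt replicate 2 was lowest and knockdown replicate 2 was highest. Gzmk, or granzyme K, was the lowest member in a single library and stood at 0.0844, 1.24 and 1.98 CPM against 1.91, 2.72 and 0.739, where the value in wt replicate 1 rests on 3 counts. Prf1, the pore-forming perforin, stood at 10.6, 7.86 and 15.2 CPM against 12.4, 28.3 and 12.3. Nkg7, a protein of granule membranes, was at 7.17, 8.46 and 15.4 CPM against 16.2, 36.9 and 12.0, and Ctsw, a protease of cytotoxic cells, at 4.27, 4.03 and 9.49 CPM against 9.56, 27.4 and 8.12. The log2 fold change was 1.34 for Ctsw (standard error 0.54, adjusted p = 0.328), 1.09 for Gzmb (standard error 0.46, adjusted p = 0.328) and 0.65 for Prf1 (standard error 0.39, adjusted p = 0.382). Granzymes belong to a family of similar genes among which counting could divide reads.

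Ifng, the gene of interferon gamma, had the largest estimate of the 44 and stood at 1.10, 1.04 and 4.41 CPM against 6.74, 19.2 and 3.58. It had a log2 fold change of 2.17 (standard error 0.78, unadjusted p = 0.0255, adjusted p = 0.328), and wt replicate 3 was above knockdown replicate 3, so the groups overlapped. Xcl1, a chemokine of activated CD8 T cells and NK cells that attracts cross-presenting dendritic cells, was at 1.52, 1.01 and 3.69 CPM against 3.97, 11.7 and 3.72. Its groups did not overlap in CPM, by a narrow margin (log2 fold change 1.64, standard error 0.63, adjusted p = 0.328). In FPKM they did, with 7.00 in wt replicate 3 and 6.96 in knockdown replicate 3. Fasl, the death ligand, was at 0.844, 1.69 and 2.41 CPM against 4.10, 6.44 and 1.48.

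The 5 NK receptors had the lowest median log2 fold change of the 9 groups of roles, 0.86, with no unadjusted p under 0.05 and a lowest level in wt replicate 2 for all 5. Ncr1, or NKp46, stood at 1.66, 1.21 and 1.76 CPM against 1.86, 4.89 and 1.64, and Klrb1c, or NK1.1, at 3.94, 2.85 and 4.36 CPM against 5.54, 13.4 and 3.61. In both genes knockdown replicate 2 stood above the other 5 libraries, which lay between 1.21 and 1.86 CPM for Ncr1 and between 2.85 and 5.54 for Klrb1c. Klre1 was at 1.83, 0.930 and 2.94 CPM against 2.49, 7.47 and 2.54. The other 2 varied little. Klrd1, or CD94, stood at 14.7, 12.0 and 18.3 CPM against 15.2, 21.9 and 19.5, and Klrk1, or NKG2D, at 23.4, 20.3 and 33.2 CPM against 24.5, 29.5 and 29.8. From the lowest to the highest library they spanned 1.83-fold and 1.64-fold, the smallest spans of the 44 genes, and Klrk1 was the only member that was not highest in knockdown replicate 2. It had a log2 fold change of 0.12 (standard error 0.21, adjusted p = 0.736) and changed sign without wt replicate 2, to -0.02.

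The IL-2 receptor was represented by Il2rb, the beta chain that T and NK cells share, at 32.3, 33.7 and 71.4 CPM against 77.9, 211 and 61.2, and by Il2ra, the alpha chain of activated and regulatory T cells, at 6.02, 3.89 and 9.73 CPM against 10.3, 15.0 and 10.4. Both had an unadjusted p under 0.05, with a log2 fold change of 1.35 (standard error 0.52) and 0.86 (standard error 0.35) and an adjusted p of 0.328 each. In Il2ra the lowest knockdown library, at 10.3, was only slightly above wt replicate 3, at 9.73.

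Levels of the members were also set against a sum of core T cell genes, some of which NK cells also express. Cd2, which NK cells share, made up 25.0% of this sum in wt replicate 1. In the other libraries it made up between 12.4% and 14.7%. The summed level of 11 core T cell genes (Cd3d, Cd3e, Cd3g, Cd2, Cd5, Cd6, Lck, Zap70, Lat, Skap1 and Bcl11b) was 39.6, 44.9 and 129.9 CPM in wt replicates 1, 2 and 3 and 122, 315 and 104 in knockdown replicates 1, 2 and 3. Its span was 7.95-fold. That of 5 core NK genes (Ncr1, Klrb1c, Klre1, Klrd1 and Eomes) was 23.9, 19.7 and 32.6 CPM in wt and 29.1, 62.9 and 30.3 in knockdown libraries, a span of 3.19-fold. Klrd1 alone spanned 1.83-fold, whereas Ncr1, Klrb1c, Klre1 and Eomes spanned 4.04-fold, 4.70-fold, 8.03-fold and 8.61-fold. This list is not limited to NK cells, Eomes being a factor of cytotoxic lymphocytes, so its sum does not measure NK content. As a percentage of the core T cell sum, the core NK sum was 60.3, 43.9 and 25.1 in wt replicates 1, 2 and 3 and 23.9, 20.0 and 29.1 in knockdown replicates 1, 2 and 3. This ratio was highest in wt replicates 1 and 2, which held the lowest core T cell sums, and every ratio shares that denominator. Klrd1 made up most of the core NK sum in these libraries, at 14.7 CPM in wt replicate 1 and 12.0 in wt replicate 2. Klre1 did not follow in wt replicate 2, where it was 2.07% of the core T cell sum, below wt replicate 3 at 2.26% and knockdown replicate 2 at 2.37%. Eomes did not follow in wt replicate 1, at 4.48%, below knockdown replicate 2 at 4.85%. For the 33 members outside the core T cell sum, the median span across libraries was 8.02-fold in CPM and 2.65-fold relative to that sum, and it was narrower for 31 of 33. The exceptions were Klrd1, at 37.1, 26.6 and 14.1% against 12.4, 6.95 and 18.7%, and Klrk1, at 59.1, 45.1 and 25.6% against 20.1, 9.39 and 28.6%.

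The share of the core T cell sum varied little for some genes and widely for others. Thy1, outside the sum, lay between 21.3% and 22.2% in 5 libraries and at 29.5% in wt replicate 2. Ctsw lay between 7.31% and 10.8%, and Tigit between 7.45% and 10.6%. Wt replicate 1 stood apart in CD8. Its Cd8a was 4.19% of the core sum, where the other 5 libraries had between 11.9% and 15.6%, and its ratio of Cd4 to Cd8a was 2.42 in FPKM, where the others had between 0.522 and 0.728. Cd28 was likewise at 6.61% in wt replicate 1 and between 15.9% and 21.2% elsewhere, and Ctla4 at 20.3% and between 35.2% and 62.4%. Prf1 went the other way, at 26.8% in wt replicate 1, 17.5% in wt replicate 2 and between 8.99% and 11.8% in the other 4. Gzmb was at 42.8% and 36.7% in wt replicates 1 and 2 and between 25.1% and 27.7% in the other 4. Foxp3 was highest in wt replicate 2, at 5.83%, and between 2.27% and 3.52% elsewhere. Ifng was at 5.53% and 6.09% in knockdown replicates 1 and 2 and between 2.32% and 3.44% in the other 4. Wt replicates 1 and 2 rest on the fewest counts, for example 59 and 249 of Cd8a.

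**Figure D3:**
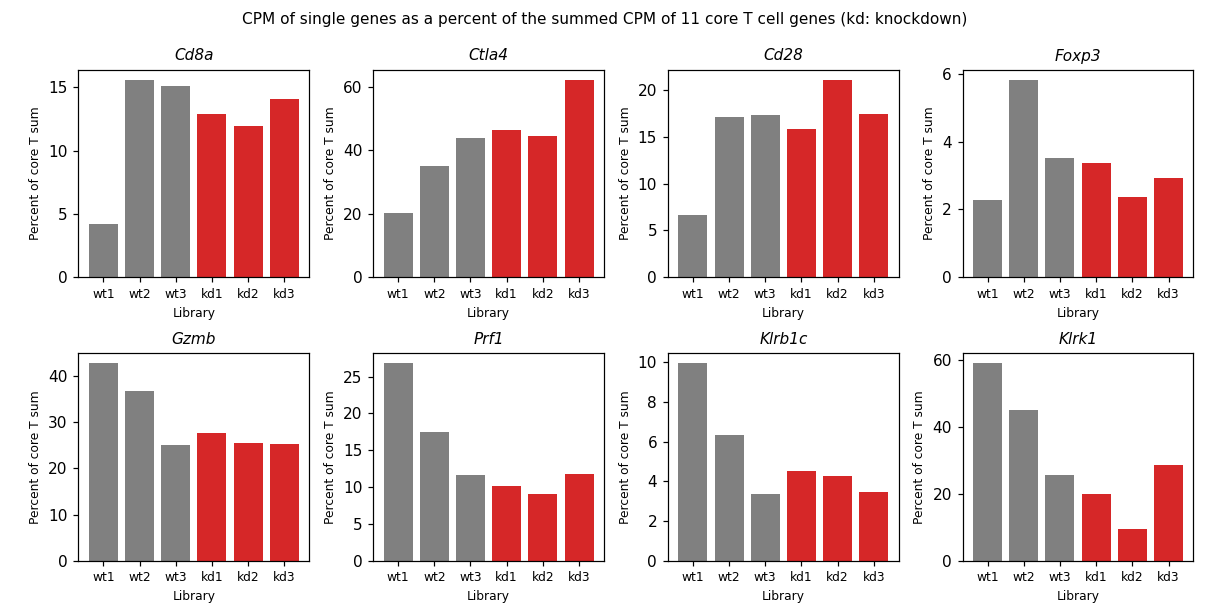
CPM of 8 genes as a percentage of the summed CPM of 11 core T cell genes (vertical axes, from 0) in each of the 6 libraries (horizontal axes, wt in grey and knockdown in red, 1 bar per library). Cd8a, Cd28 and Ctla4 are lowest in wt replicate 1, whereas Gzmb, Prf1, Klrb1c and Klrk1 are highest there.

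A further list of 68 T and NK genes that are not members was examined, of which 64 were in the table and all 64 were tested. None was called by edgeR, 55 had a higher and 9 a lower estimate, and the median log2 fold change was 1.10. Their summed level was 3871, 4683 and 4712 CPM in wt and 4359, 4413 and 4850 in knockdown libraries, highest in knockdown replicate 3. Ccl3, Ccl4 and Rgs1 were among the largest parts of this sum. At an unadjusted p under 0.05, 20 of the 64 genes were higher and 4 lower. Of all 13884 genes tested, 2112 passed this level in either direction, 958 of them (6.9%) as higher. DESeq2 called 1 gene of the list, Gzmc, or granzyme C, with an adjusted p of 0.0439. It stood at 11.9, 5.83 and 10.1 CPM against 20.5, 52.1 and 17.0, with a log2 fold change of 1.69 in edgeR (standard error 0.47, adjusted p = 0.328). Klrg1, Il18rap, Gzmc and Ly6c2 were among the 5 genes with the smallest p. Klrg1, a receptor of terminally differentiated T and NK cells, stood at 0.900, 0.958 and 0.989 CPM against 2.42, 3.72 and 2.02, without overlap (log2 fold change 1.52, standard error 0.35, adjusted p = 0.328). Il18rap, a chain of the IL-18 receptor, stood at 37.7, 53.7 and 66.7 CPM against 93.9, 93.2 and 82.6 (log2 fold change 0.77, standard error 0.20). Ly6c2, which monocytes also express, stood at 462, 307 and 283 CPM against 241, 177 and 209, lower in every knockdown library than in any wt library (log2 fold change -0.75, standard error 0.22, adjusted p = 0.328). Cd4, chosen for description after its values were seen, stood at 4.44, 4.06 and 12.7 CPM against 12.7, 29.9 and 10.7.

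Markers of other cells were set beside the members. The 18 genes of the macrophage list summed to 30513, 28134 and 24591 CPM in wt replicates 1, 2 and 3 and 19361, 14690 and 24857 in knockdown replicates 1, 2 and 3. All 18 had a lower estimate in knockdown libraries, 0 were called, 10 had an unadjusted p under 0.05, and the median log2 fold change was -0.54. Of all 13884 genes tested, 2112 had such a p in either direction, 958 of them as higher. From lowest to highest, the libraries ranked wt replicate 1, wt replicate 2, knockdown replicate 3, knockdown replicate 1, wt replicate 3 and knockdown replicate 2 by the members' sum. By the macrophage sum they ranked, from highest to lowest, wt replicate 1, wt replicate 2, knockdown replicate 3, wt replicate 3, knockdown replicate 1 and knockdown replicate 2. As a percentage of the macrophage sum, the members' sum was 0.775, 0.923 and 2.56 in wt and 3.07, 9.95 and 2.15 in knockdown libraries. The sorting markers Itgam, Adgre1 and Ptprc are among the 18 genes, so they are parts of the macrophage sum and no separate check. They followed it in part. Itgam stood at 2877, 2975 and 2708 CPM against 1945, 1492 and 2660.2. Adgre1 stood at 302, 201 and 222 CPM against 165, 127 and 224. Ptprc, which lymphocytes share, stood at 957, 972 and 1393 CPM against 1001, 928 and 1189. An added alternative, in which libraries were scaled to the macrophage sum, moved the median log2 fold change of all genes from 0.02 to 0.57 and that of the members from 1.23 to 1.86, and left 0 members called. The part of these markers in the members' result was not tested.

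**Figure D4:**
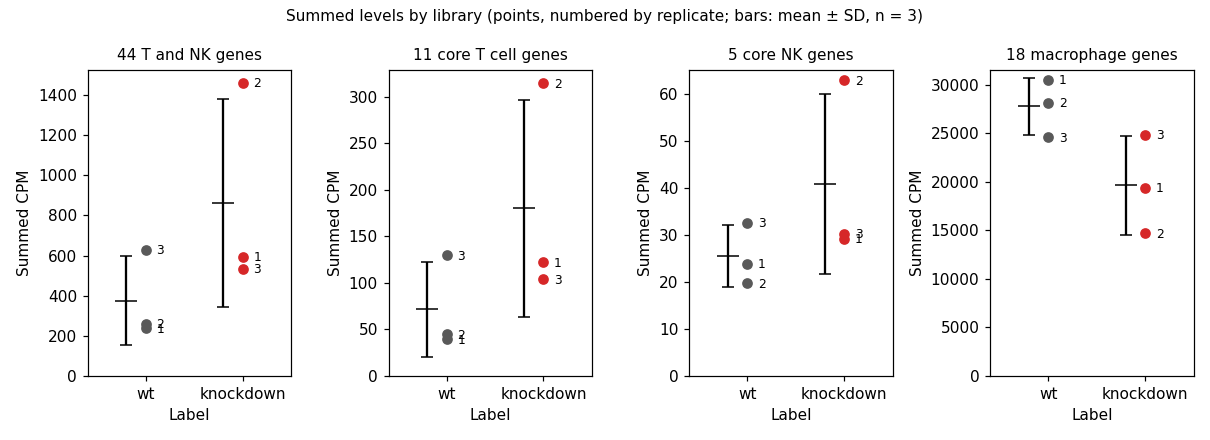
Summed CPM (vertical axes, from 0) of the 44 members, 11 core T cell genes, 5 core NK genes and 18 macrophage genes in wt and knockdown libraries (horizontal axes). Points are libraries numbered by replicate and bars are mean ± SD (n = 3). Knockdown replicate 2 is highest at 1461 CPM for the members and lowest at 14690 CPM for the macrophage genes.

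Other lymphocytes and myeloid cells did not share the members' order in every list. The 11 B cell genes in the table summed to 68.9, 12.6 and 65.4 CPM in wt and 29.3, 102 and 28.4 in knockdown libraries, so that wt replicate 1 was the second highest and not the lowest. The 13 neutrophil genes summed to 2081, 2006 and 2246 CPM in wt and 1714, 904 and 1746 in knockdown libraries, lowest where the members were highest. The 14 dendritic cell genes lay between 737 and 1110.4 CPM, the 10 endothelial genes between 34.5 and 45.6 and the 8 mast cell and basophil genes between 174 and 366. The 14 fibroblast genes, of which Thy1 is also a member, summed to 52.6, 626 and 387 CPM in wt and 901, 786 and 468 in knockdown libraries. The 10 cell cycle genes were at 66.6, 354 and 308 in wt and 473, 533 and 365 in knockdown libraries, lowest and highest in the same libraries as the members. The 7 epithelial or carcinoma genes in the table were at 36.1, 138 and 80.4 in wt and 192, 183 and 129 in knockdown libraries. No list had a gene at 0 in all 6 libraries, and none of their genes was called by edgeR. The part of these cell types in the members' levels was not tested.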

How the data were processed

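RNA of 6 libraries was compared, 3 labelled wt and 3 labelled knockdown. The authors deposited a table of raw gene counts. They deposited FPKM values too, in which the count is scaled to the length of the gene and the size of the library. The genome build is mm10 in the submitters' processing notes, and the aligner, counting tool and annotation are not given in the sources used here. According to the study's methods, cDNA was made with a SMARTer low-input kit, whereas the labels describe a small RNA protocol. Positions and overlaps of genes came from GENCODE on GRCm38, matched by symbol.

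Counts were tested with edgeR 4.0.16 in R 4.3.3 (filterByExpr, TMM, glmQLFit, glmQLFTest), with Benjamini-Hochberg adjustment over 13884 genes, on all 6 libraries. The standard error was taken as the size of the log2 fold change over the root of the F statistic. Alternatives used DESeq2 1.42.0, limma 3.58.1 on log2(FPKM + 1) or log2(FPKM + 0.1), other scalings and filters, a replicate block, and fits with each library left out. Each tool was run on simulated data in which genes were drawn independently and 200 of them were changed. This does not measure how the tools treat genes that vary together, as most members did. The members, lists and tests were chosen with earlier results of these data known, so no p is given for a sum over members. By rule, each member with a mean of at least 1 CPM was described (all 44), with Npm1, the sorting markers and the 5 other T and NK genes of smallest p, of which 1 is not reported here. Correlations of the deviations of same-numbered libraries from their group means were -0.241, 0.06 and -0.337 for replicates 1, 2 and 3. These values gave no sign that the numbers pair libraries, and with 3 libraries per group they cannot exclude it. Libraries of a group differed by a chi-square value per gene of at least 34.4, so none was a copy.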

Additional observations from a re-analysis of the deposited data

How the results depend on the processing

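No member was called by edgeR, DESeq2 or limma under any of the 17 alternatives run, and all tested members kept a positive estimate in each, except that the log2 fold change of Klrk1 was -0.024 without wt replicate 2 and ranged from -0.024 to 0.34 with 1 library left out. The number of members at an unadjusted p under 0.05, 15 of 44, moved to 36 with scaling to the macrophage list (added after the data were examined), where the share of all genes higher at this level moved from 6.9% to 30.4%. It was 26 with DESeq2, 31 without a filter on low counts, 6 with the replicate block and 23 without wt replicate 1 and knockdown replicate 3 together. With 1 library left out it ranged from 0 (without wt replicate 2 or knockdown replicate 2) to 30 (without wt replicate 3), and it was 3 without wt replicate 1. It stayed between 15 and 21 under the other scalings, tests and filters. The cause was not tested. The replicate block changed no call.

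The log2 ratio of the members' summed CPM lay between 0.58 (without knockdown replicate 2) and 1.83 (macrophage scaling), that of the core T cell genes between 0.65 and 2.07, and that of the core NK genes between 0.22 and 1.32, the last with macrophage scaling against 0.68. The log2 fold change of Ptprc, at -0.091, changed sign to 0.045 without scaling factors, 0.41 with macrophage scaling, 0.0721 and 0.0726 with limma on log2 FPKM plus 1 and plus 0.1 and 0.093 without wt replicate 3. Leaving out libraries gave a range from -0.298 (without wt replicate 1 and knockdown replicate 3) to 0.093. The log2 fold change of Adgre1 became 0.0064 with macrophage scaling. Ptprc and Adgre1 both belong to the macrophage list, so this scaling draws on their own counts. Gzmk in wt replicate 1 rests on 3 counts.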
